A study of Homo sapiens with 8 samples.

Results

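Transcripts of 10 p53 target genes were followed through 8 RNA sequencing libraries of HepaRG, a human hepatic progenitor line that can form hepatocyte-like and biliary-like cells, and of M14A, a line derived from it. The genes were CDKN1A, MDM2, ZMAT3, SESN1, GDF15, BBC3, BAX, PMAIP1, FDXR and TP53I3, taken by name from the protein-coding entries of an expression table with 58735 genes. The choice used no rule on their measured values, but it was made with earlier results of these data known. All 10 passed the filter on low values. The label of M14A names FoxM1/HNF4A as transfected and the study calls the line gene-edited, while HepaRG is labelled WT. Whether M14A is 1 clone is not given in the sources used here. For M14A printed (2 libraries), flask cells were detached, suspended in the bioink GP and printed, and the constructs were snap frozen and ground 4 h later. M14A plate (3 libraries) and HepaRG plate (3 libraries) were flask cultures, detached and pelleted. Printing and the way of collection therefore cannot be told apart.

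The transcription factor p53 is held low by MDM2, a ubiquitin ligase that is itself a p53 target, and accumulates when DNA damage or other stress breaks that hold. It then binds response elements near its targets, which stop the cell cycle, promote apoptosis, repair DNA or adjust metabolism and redox balance. In liver cells this programme is known to limit the growth of damaged hepatocytes and progenitors.

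A p53 response element is built of 2 adjoining motifs of 10 bases each. RefSeq start-site windows on GRCh38.p14 (250 bases before each start and 50 after it) were found for all 10 genes, 17 windows in all. They were searched on both strands for the best match of 20 bases to the p53 response-element consensus, with no spacer and with the C and G of the core CNNG kept in both motifs. Among the 10 genes, 5 had a match with at most 3 mismatches, against 1.37% of 27305 genes with such a window. The sequences are shown because these are the stretches closest to the consensus beside the genes whose values follow. Capitals mark the matched 20 bases, written 5′ to 3′ on the strand of the gene.
MDM2: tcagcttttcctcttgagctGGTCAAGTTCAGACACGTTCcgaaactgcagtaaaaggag
SESN1: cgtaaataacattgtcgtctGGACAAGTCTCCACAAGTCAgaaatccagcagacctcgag
PMAIP1: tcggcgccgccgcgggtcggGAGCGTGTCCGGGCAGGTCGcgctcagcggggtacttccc
FDXR: ggcccGGGCAGGAGCGGGCTTGCCCtgcgg
GDF15: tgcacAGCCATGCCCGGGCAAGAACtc
The stretch of MDM2 (chr12:68808903-68808962, plus strand) had 2 mismatches, a level that 0.36% of the genes reached, and its match began 94 and 101 bases before start sites inside the gene. That of SESN1 (chr6:109008998-109009057, minus strand) had 3 mismatches and began 49 bases before one of its 3 start sites. PMAIP1 (chr18:59899791-59899850, plus strand) also had 3, beginning 185 bases before the start. FDXR (chr17:74872991-74873020, minus strand) had 3 mismatches at 21 bases before the start, and GDF15 (chr19:18386181-18386207, plus strand) 3 at 28 bases after it. The best match had 4 mismatches in ZMAT3, 5 in CDKN1A, 6 in BAX and 10 in TP53I3, and no stretch of BBC3 kept both cores. A match describes these letters only, and elements outside the windows were not searched.

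Expression was given as FPKM, fragments scaled by gene length and by a library total set by the authors. The 8 libraries held 15632154 to 19148262 reads, and the 10 genes had from 190 to 20530 reads each per library. HNF4A, named in the genotype label, stood at 17.1 and 13.6 FPKM in M14A printed and at 37.9 to 43.1 FPKM in M14A plate, against 5.67 to 6.50 FPKM in HepaRG plate. FOXM1 averaged 10.8 ± 2.06 FPKM in M14A plate and 13.8 ± 0.991 FPKM in HepaRG plate (SD, n = 3 each) and did not pass the test. The summed FPKM of 6 hepatocyte markers was 766 in both M14A printed libraries and 474 to 621 in M14A plate, against 19.5 to 21.3 in HepaRG plate, with TTR under 1 FPKM in every group. Summed over 5 biliary markers it was 46.4 to 49.96 FPKM in M14A printed and 26.0 to 61.1 FPKM in M14A plate, against 98.4 to 102 FPKM in HepaRG plate, with EPCAM under 1 FPKM in all groups. These markers went in opposite directions, with SPP1 called lower (log2 fold change -2.34) and KRT7 higher (1.05) in M14A plate, against HepaRG plate. For 6 fibroblast and stellate markers the sums were 84.2 to 92.6 FPKM in M14A printed and 40.5 to 68.8 FPKM in M14A plate, against 19.4 to 21.1 FPKM in HepaRG plate, with COL1A2 under 1 FPKM throughout. Relative to HepaRG plate, in M14A plate DCN (2.73) and ACTA2 (2.30) were called higher and PDGFRB (-1.39) and COL1A1 (-0.72) lower on the log2 scale. Those of 5 endothelial markers stayed at or below 2.35 FPKM in every library, and PECAM1, CDH5, VWF and TEK were under 1 FPKM. Leukocyte markers (5 genes) summed to 9.94 to 11.8 FPKM in M14A printed and 6.60 to 10.6 FPKM in M14A plate, against 2.26 to 2.89 FPKM in HepaRG plate, with PTPRC, CD3E and CD68 under 1 FPKM. The part of these markers in the results below was not tested. In such bulk libraries, fewer cells with a transcript and less transcript per cell cannot be told apart. The labels do not tell whether replicates are separate cultures, so p-values measure only how far these samples spread, and that spread may be technical.

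Most of the p53 target genes had far more RNA in M14A plate than in HepaRG plate, a comparison of the edited line with the line it was made from, both in flasks. CDKN1A, GDF15, FDXR and MDM2 were 8.50 to 11.1 times higher as ratios of mean FPKM, BBC3, BAX, SESN1 and ZMAT3 were 3.03 to 4.78 times higher, and PMAIP1 alone was lower. On log2(FPKM + 1) in limma, with adjusted p over all 14349 genes tested, 8 of the 10 rose and 1 fell at an adjusted p below 0.05. Of all tested genes, 16.1% were called higher and 14.7% lower, 30.9% in either direction. The median log2 fold change was 1.93 over the 10 genes and -0.04 over all genes. In all 10 genes the M14A plate and HepaRG plate values did not overlap, as in 25.7% of tested genes on the higher side and 27.4% on the lower side.

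**Figure D1:**
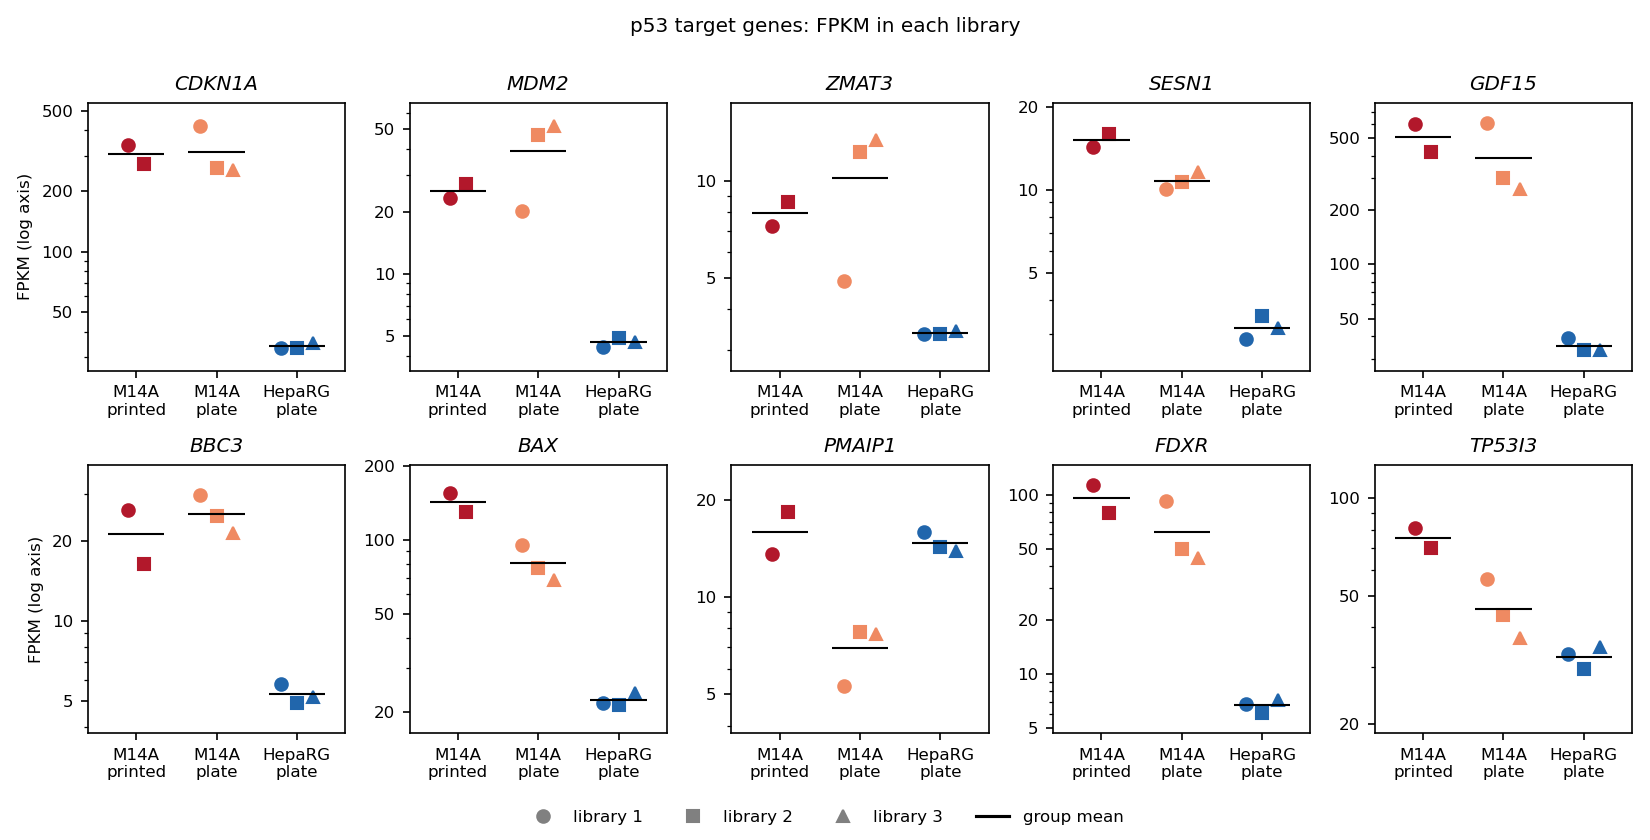
FPKM of each p53 target gene (log axis) in M14A printed (2 libraries), M14A plate (3) and HepaRG plate (3), with a symbol per library number and a line at the group mean. CDKN1A stands at 254 to 421 FPKM in M14A plate against 33.3 to 35.3 FPKM in HepaRG plate, whereas PMAIP1 is lowest in M14A plate.

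Genes of cell cycle arrest and of the feedback on p53 were all higher in M14A plate. CDKN1A encodes p21, the inhibitor of cyclin-dependent kinases through which p53 arrests cells in G1 (ENSG00000124762, chromosome 6, 36676460 to 36687339, GRCh38). It stood at 421, 259 and 254 FPKM in M14A plate libraries 1, 2 and 3, against 33.3, 33.5 and 35.3 FPKM in the HepaRG plate libraries. Every M14A plate library lay far above every HepaRG plate library, with a log2 fold change of 3.12 (SE 0.20, limma adjusted p = 1.07e-05). MDM2 (ENSG00000135679, chromosome 12, 68808176 to 68850686) had 20.03, 46.7 and 51.7 FPKM in M14A plate, against 4.39, 4.89 and 4.66 FPKM in HepaRG plate. Library 1 of M14A plate was less than 0.5 times libraries 2 and 3 in this gene, yet above HepaRG plate, and the log2 fold change was 2.73 (SE 0.31, limma adjusted p = 2.51e-04). SESN1, a sestrin that restrains growth signalling through mTORC1 (ENSG00000080546, chromosome 6, 108986437 to 109094819), had 10.1, 10.7 and 11.6 FPKM in M14A plate, against 2.87, 3.48 and 3.15 FPKM in HepaRG plate. Its M14A plate values were the most even of the 10 genes, with an SD of 7.37% of the mean, and its log2 fold change was 1.502 (SE 0.12, limma adjusted p = 2.99e-05). ZMAT3, a zinc finger protein that binds RNA and acts in splicing (ENSG00000172667, chromosome 3, 179017223 to 179072279), had 4.90, 12.3 and 13.4 FPKM in M14A plate, against 3.35, 3.36 and 3.42 FPKM in HepaRG plate. As in MDM2, M14A plate library 1 was the low one. The log2 fold change of ZMAT3 was 1.25 (SE 0.30, limma adjusted p = 0.0139), and the call was lost when libraries were scaled to equal FPKM totals (log2 fold change 1.12, adjusted p = 0.0564).

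The apoptosis genes went in opposite directions. BBC3 encodes PUMA, a BH3-only protein that binds the pro-survival BCL2 proteins (ENSG00000105327, chromosome 19, 47220822 to 47232766). It stood at 29.7, 24.9 and 21.3 FPKM in M14A plate, against 5.78, 4.92 and 5.17 FPKM in HepaRG plate, a log2 fold change of 2.05 (SE 0.19, limma adjusted p = 7.97e-05). BAX, the pore-forming effector of the mitochondrial outer membrane (ENSG00000087088, chromosome 19, 48954815 to 48961798), had 95.7, 76.7 and 68.7 FPKM in M14A plate, against 21.6, 21.3 and 23.8 FPKM in HepaRG plate. Both genes were thus separated between the lines in every library, and the log2 fold change of BAX was 1.80 (SE 0.15, limma adjusted p = 5.20e-05). PMAIP1 encodes NOXA, a BH3-only protein that chiefly neutralises MCL1 (ENSG00000141682, chromosome 18, 59899948 to 59904306). It had 5.32, 7.79 and 7.68 FPKM in M14A plate, against 15.9, 14.3 and 13.9 FPKM in HepaRG plate. Every M14A plate library lay below every HepaRG plate library, and PMAIP1 fell by 1.00 on the log2 scale (SE 0.17, limma adjusted p = 0.00265). GDF15, a secreted cytokine of the TGF-beta family that serves as a marker of tissue stress (ENSG00000130513, chromosome 19, 18374731 to 18389176), had 605, 299 and 261 FPKM in M14A plate, against 38.8, 33.3 and 33.3 FPKM in HepaRG plate. It had the largest log2 fold change of the 10 genes, 3.33 (SE 0.30, limma adjusted p = 6.52e-05), and was the most abundant of them in M14A plate by mean FPKM.

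The mitochondrial and redox genes differed in size. FDXR, the reductase that passes electrons from NADPH to ferredoxin in mitochondria (ENSG00000161513, chromosome 17, 74862497 to 74873031), had 91.7, 49.7 and 44.3 FPKM in M14A plate, against 6.83, 6.08 and 7.13 FPKM in HepaRG plate. Library 1 was again the highest, and the log2 fold change was 2.96 (SE 0.27, limma adjusted p = 6.53e-05). TP53I3, a quinone oxidoreductase also called PIG3 (ENSG00000115129, chromosome 2, 24077433 to 24085861), had 56.2, 43.4 and 36.9 FPKM in M14A plate, against 32.8, 29.5 and 34.6 FPKM in HepaRG plate. The groups did not overlap, but the difference did not pass the threshold (log2 fold change 0.46, SE 0.17, 95% interval 0.08 to 0.85, limma adjusted p = 0.0694). It passed when M14A plate library 3 was left out (log2 fold change 0.60, adjusted p = 0.0288). Of the exon bases of MDM2, 9.21% lie in exons of other genes, as do 7.09% in SESN1, 4.79% in CDKN1A, 3.46% in TP53I3 and 2.52% in BBC3. Reads there are uncertain, and the strand setting of the counting is not given in the sources used here.

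Scaling libraries to equal FPKM totals moved the median of all genes in this comparison to -0.22. Of all calls, 52.3% were higher without that scaling and 36.9% with it. Relative to that median, CDKN1A stood at 3.14, GDF15 at 3.35, FDXR at 3.01, MDM2 at 2.80 and PMAIP1 at -0.98 on the log2 scale. No direction among the 10 genes changed under any of the 23 other settings tried in this comparison. Without M14A plate library 1, 8 of the 10 were again called higher and PMAIP1 lower, beside 20.3% of all tested genes higher and 22.4% lower.

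**Figure D2:**
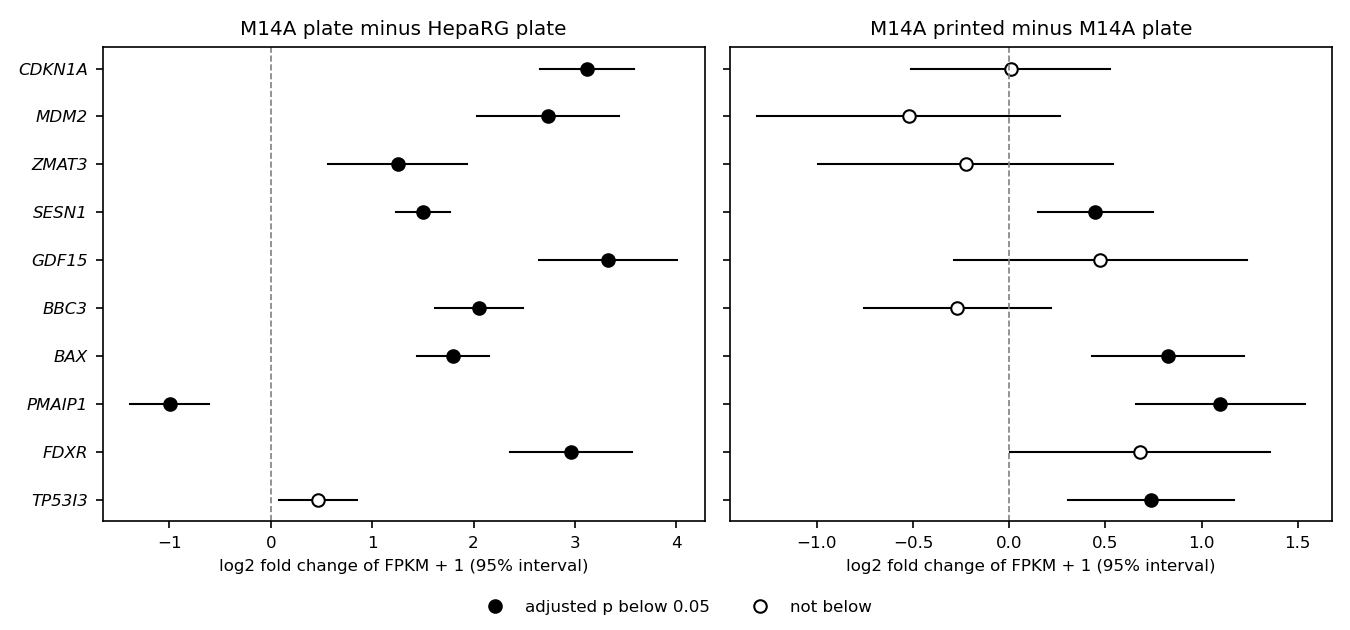
Log2 fold change of FPKM + 1 with its 95% interval for the 10 p53 target genes, M14A plate minus HepaRG plate on the left and M14A printed minus M14A plate on the right, filled where the limma adjusted p was below 0.05. On the left 8 genes lie above 0 and PMAIP1 lies below it with filled symbols. On the right only BAX, PMAIP1, TP53I3 and SESN1 are filled, and scaling to equal FPKM totals turns TP53I3 and SESN1 below 0 there.

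Other p53 targets were also higher in M14A plate. A list of 36 further targets was drawn from general knowledge, with earlier results of these data known, and 31 were tested. Of these, 27 rose and 0 fell by limma, beside 16.1% of all tested genes called higher and 14.7% lower. At an unadjusted p below 0.05 also 0 of these targets were lower, and by voom on recovered reads 25 were higher and 0 lower. Their median log2 fold change was 1.29, against -0.04 for all tested genes. The 5 not tested (RPRM, TNFRSF10C, TP53AIP1, TIGAR and GLS2) were under the filter, which does not show that they are silent, since reads in exons shared with other genes can be lost in counting. Among 8 targets of arrest and growth, 7 rose, led by the antiproliferative factor BTG2 (2.51, SE 0.19), the kinase PLK3 (2.27, SE 0.21) and TP53INP1 (1.52, SE 0.24), a regulator of autophagy and cell death, all as log2 fold changes. Cyclin G1 (CCNG1) did not pass, at 0.36. Among 10 targets of cell death and survival, 9 rose, led by the Akt inhibitor PHLDA3 (2.22, SE 0.22) and the receptors EDA2R (2.06, SE 0.12) and FAS (1.75, SE 0.20), and the apoptosome component APAF1 did not pass, at 0.32. Among 13 targets of repair and metabolism, 11 rose, led by SPATA18 (3.05, SE 0.12), a factor of mitochondrial quality control, the damage sensor DDB2 (1.69, SE 0.14) and the ribosomal protein paralog RPS27L (1.53, SE 0.12). SCO2, a copper chaperone of cytochrome oxidase, was at -0.20 and the AMPK subunit PRKAB1 at 0.36, and neither passed. The SCO2 entry used was near the filter, with 0.674 to 0.752 FPKM in M14A plate and 0.748 to 1.14 FPKM in HepaRG plate. Another SCO2 entry stayed at or below 0.25 FPKM and was not tested. SPATA18 stood at 12.6, 14.8 and 14.9 FPKM in M14A plate, against 0.817, 0.924 and 0.706 FPKM in HepaRG plate, with every M14A plate library above every HepaRG plate library.

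A further list held kinases, ligases and phosphatases that act on p53, with its relatives. Of its 13 tested genes, 2 rose and 3 fell in M14A plate relative to HepaRG plate. Of all tested genes 16.1% rose and 14.7% fell, and a difference from those shares was not tested. The phosphatase PPM1D, which switches p53 off after damage, rose by 0.77 on the log2 scale (SE 0.12), while the repair adaptor TP53BP1 fell by 0.54 (SE 0.16) and the deubiquitinase USP7 by 0.47 (SE 0.10). The other called genes, named after their values were seen, were the p53 relative TP73 (0.45) and MDM4 (-0.43), which binds and restrains p53. The activity of p53 is set largely at the protein level, which was not measured. With 1 library left out, the count of falls was 0 without HepaRG plate library 1 or 2, 1 without HepaRG plate library 3, and 5 without M14A plate library 1, and the count of rises was 1 without M14A plate library 2 or any HepaRG plate library.

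Genes downstream of p21 and neighbouring families were read beside the 10 targets. The counts that follow stand beside 16.1% of all tested genes called higher and 14.7% lower, and differences from these shares were not tested. Of 11 tested cell cycle genes known to be repressed through p21 and the DREAM complex, 0 rose and 6 fell by limma, with 0 higher also at an unadjusted p below 0.05 and by voom. The largest falls were in the kinesin KIF23 (log2 fold change -1.16, SE 0.22), the anaphase activator CDC20 (-1.12, SE 0.25) and the checkpoint kinase BUB1 (-0.77, SE 0.16). CDC20 averaged 79.6 ± 34.5 FPKM in M14A plate and 165 ± 9.20 FPKM in HepaRG plate (SD, n = 3 each). A list of other CDK inhibitors and G1 cyclins also held the kinases CDK2, CDK4 and CDK6, and PCNA. Among its 13 tested genes, CDKN2B rose (1.03, SE 0.12), CDKN2C fell (-1.14, SE 0.19) and 11 were not called. In the BCL2 family outside BBC3, BAX and PMAIP1, 6 of 12 genes rose and 2 fell. The BH3-only gene BIK rose by 2.47 (SE 0.19), BMF of the same class fell by 1.98 (SE 0.14), and the pro-survival BCL2L1 rose by 1.41 (SE 0.21) on the log2 scale. MCL1, the partner of NOXA, was named after its value was seen and rose by 0.99 (SE 0.12). ATF4 and the integrated stress response are known to induce PMAIP1 and GDF15 as well. Of 8 genes of that list, 1 rose and 4 fell, among them ATF4 (-1.33, SE 0.16), CHAC1 (-1.20, SE 0.20) and TRIB3 (-1.15, SE 0.26). ATF4 stood at 63.1, 45.2 and 42.5 FPKM in M14A plate, against 127, 123 and 127 FPKM in HepaRG plate. Its part in the levels of PMAIP1 and GDF15 was not tested.

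**Figure D3:**
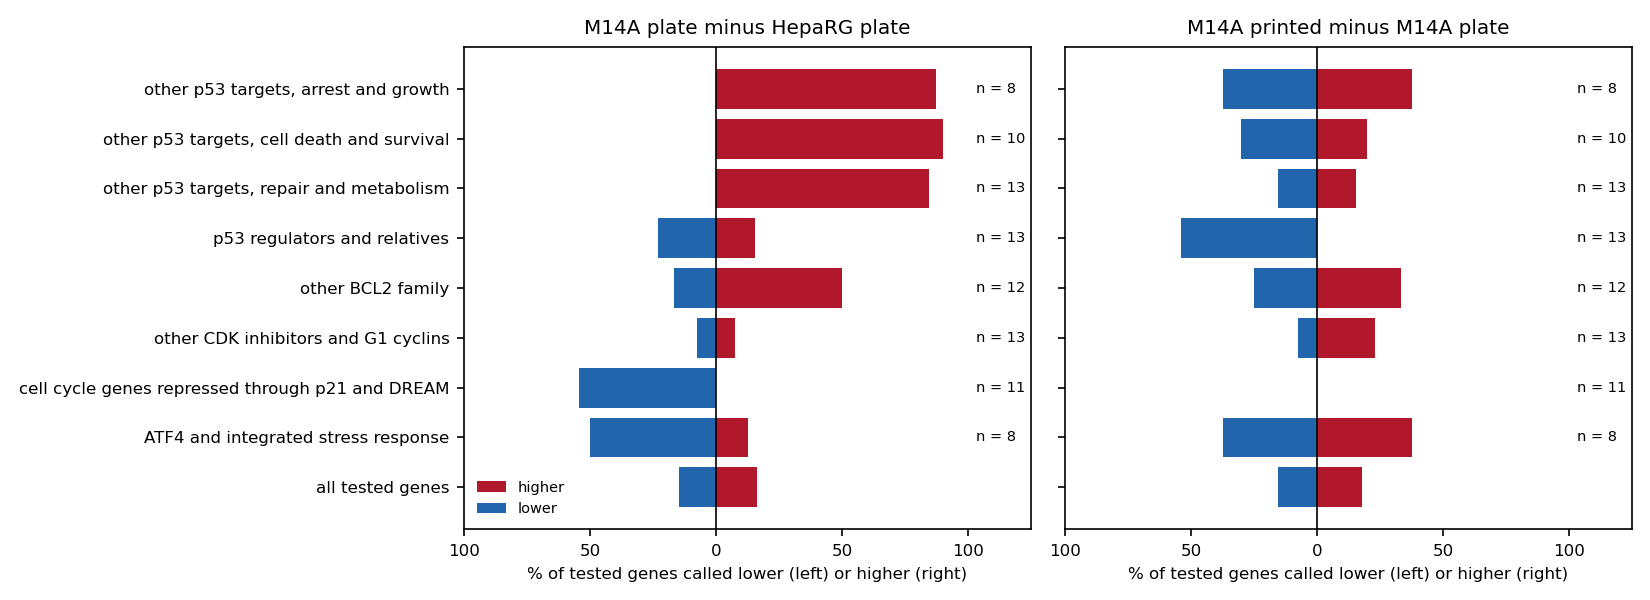
Share of tested genes called higher (right of 0) or lower (left of 0) in each list and in all tested genes, M14A plate minus HepaRG plate in the left panel and M14A printed minus M14A plate in the right panel, with the number of tested genes beside each bar. The 3 lists of other p53 targets have no lower call in the left panel and calls on both sides in the right panel, where scaling to equal FPKM totals leaves 0 higher and 20 lower calls among them.

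The comparison of M14A printed with M14A plate asks what differs 4 h after printing. Here the 10 genes did not move together. PMAIP1, BAX, TP53I3 and SESN1 were called higher in M14A printed, by 1.40 to 2.30 times as ratios of mean FPKM, while CDKN1A, MDM2, ZMAT3, GDF15, BBC3 and FDXR were not called. In all 4 called genes the FPKM values of the groups did not overlap, and each M14A printed library was above each M14A plate library. Of all tested genes 17.7% were called higher and 15.5% lower, 33.2% in either direction, and 26.9% did not overlap on the higher side and 24.4% on the lower side. Over the 10 genes 4 rose and 0 fell by limma, with 5 higher and 0 lower at an unadjusted p below 0.05, and 4 and 0 by voom. The median log2 fold change was 0.46 over the 10 genes and 0.01 over all genes.

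Among the apoptosis genes, PMAIP1 stood at 13.6 and 18.3 FPKM in M14A printed, against 5.32, 7.79 and 7.68 FPKM in M14A plate. The log2 fold change was 1.10 (SE 0.19, limma adjusted p = 0.00377), the largest among the 10 genes, and the printed values lay around those of HepaRG plate. BAX had 155 and 129 FPKM in M14A printed, against 95.7, 76.7 and 68.7 FPKM in M14A plate (log2 fold change 0.82, SE 0.17, limma adjusted p = 0.00808). Its call was lost without M14A printed library 1 (0.69, adjusted p = 0.0671). BBC3 had 26.0 and 16.3 FPKM in M14A printed, against 29.7, 24.9 and 21.3 FPKM in M14A plate, so the groups overlapped, and it was not called (log2 fold change -0.27, SE 0.21, 95% interval -0.76 to 0.22, limma adjusted p = 0.362). GDF15 had 598 and 421 FPKM in M14A printed, against 605, 299 and 261 FPKM in M14A plate. The printed values fell inside the spread of the plate libraries, with a log2 fold change of 0.47 (SE 0.33, 95% interval -0.29 to 1.23, limma adjusted p = 0.308).

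In the redox pair, TP53I3 had 80.6 and 70.2 FPKM in M14A printed, against 56.2, 43.4 and 36.9 FPKM in M14A plate (log2 fold change 0.73, SE 0.19, limma adjusted p = 0.0184). FDXR had 113 and 79.5 FPKM in M14A printed, against 91.7, 49.7 and 44.3 FPKM in M14A plate, and the groups overlapped through M14A plate library 1 (log2 fold change 0.68, SE 0.30, 95% interval 0.00297 to 1.36, limma adjusted p = 0.112). The call of TP53I3 was lost without M14A printed library 1 or 2 or M14A plate library 2, at log2 fold changes of 0.64, 0.83 and 0.71. SESN1 had 14.3 and 15.9 FPKM in M14A printed, against 10.1, 10.7 and 11.6 FPKM in M14A plate (log2 fold change 0.45, SE 0.13, limma adjusted p = 0.0307). It was no longer called without any one of 6 libraries, namely both printed ones, M14A plate library 2 and the 3 of HepaRG plate, with log2 fold changes of 0.38 to 0.52.

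For arrest and feedback, CDKN1A had 338 and 273 FPKM in M14A printed, against 421, 259 and 254 FPKM in M14A plate, with a log2 fold change of 0.01 (SE 0.23, 95% interval -0.51 to 0.53, limma adjusted p = 0.988). The interval spans both directions, so these values do not settle whether CDKN1A rose, fell or stayed level within it. MDM2 had 23.3 and 27.1 FPKM in M14A printed, against 20.03, 46.7 and 51.7 FPKM in M14A plate, and the groups overlapped only through M14A plate library 1 (log2 fold change -0.52, SE 0.35, limma adjusted p = 0.278). ZMAT3 had 7.27 and 8.59 FPKM in M14A printed, against 4.90, 12.3 and 13.4 FPKM in M14A plate, with the same arrangement of libraries (log2 fold change -0.23, SE 0.34, limma adjusted p = 0.637). Without M14A plate library 1, MDM2 (-0.94, limma adjusted p = 3.6e-04) and ZMAT3 (-0.64, limma adjusted p = 0.00134) were called lower. FDXR (1.00, limma adjusted p = 0.00221) and GDF15 (0.84, limma adjusted p = 0.0054) were then called higher, which made 6 higher and 2 lower. In that fit 28.2% of all tested genes were called higher and 26.9% lower, against 17.7% and 15.5% with all libraries.

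The scale mattered more here than between the plate cultures. FPKM totals were 514152 and 499995 in M14A printed and 272290 to 350931 in M14A plate, and mitochondrial genes took 13.3% and 16.4% of reads in M14A printed, against 8.21% to 9.72% in M14A plate. With equal FPKM totals the median of all genes moved from 0.01 to -0.51, and calls over all genes went from 53.3% higher (2544 higher and 2226 lower) to 6.65% higher (483 and 6779). On that scale 3.24% of all tested genes were called higher and 45.4% lower, and 0 of the 10 genes were called higher and 2 lower, CDKN1A (-0.75) and BBC3 (-0.99). Relative to the shifted median, PMAIP1 stood at 0.90, BAX at 0.57, TP53I3 at 0.49, SESN1 at 0.25, CDKN1A at -0.25 and MDM2 at -0.75 on the log2 scale. The part of the totals and of mitochondrial reads in the differences was not tested.

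M14A plate library 1 differed from libraries 2 and 3, with Pearson correlations across genes of 0.957 and 0.948 with them, against 0.988 between libraries 2 and 3. The 10 genes split in it. CDKN1A, GDF15, FDXR, BBC3, BAX and TP53I3 had their highest M14A plate value in library 1, and MDM2, ZMAT3, PMAIP1 and SESN1 their lowest. Relative to the mean of libraries 2 and 3, library 1 was 1.11 higher in GDF15, and differed by -1.25 in MDM2 and -1.23 in ZMAT3 on the log2 scale. MDM2 (13284 bases) and ZMAT3 (9646 bases) were the longest of the 10 genes, and the other 8 ran from 2087 to 5121 bases. All tested genes were cut by length into 10 classes of about equal size. In the longest class, from 9726 to 44677 bases, the median difference was -0.17, against 0.29 in the class from 2509 to 3345 bases. M14A printed minus M14A plate libraries 2 and 3 was also lower in the longest class (-0.41) than in the class from 2509 to 3345 bases (0.24). MDM2 stood there at -0.94 and ZMAT3 at -0.64. The other classes did not keep 1 order: the class from 617 to 1612 bases was at 0.35 in M14A printed and 0.12 in library 1. The shortest class was at -0.05 in both. With each library's trend with length and GC content removed and M14A plate library 1 left out, MDM2 stood at -0.50 and ZMAT3 at -0.39. PMAIP1 and BAX were still called higher in M14A printed, and 3 of the 10 genes were called lower. In that fit 31.2% of all tested genes were called higher and 26.6% lower.

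**Figure D4:**
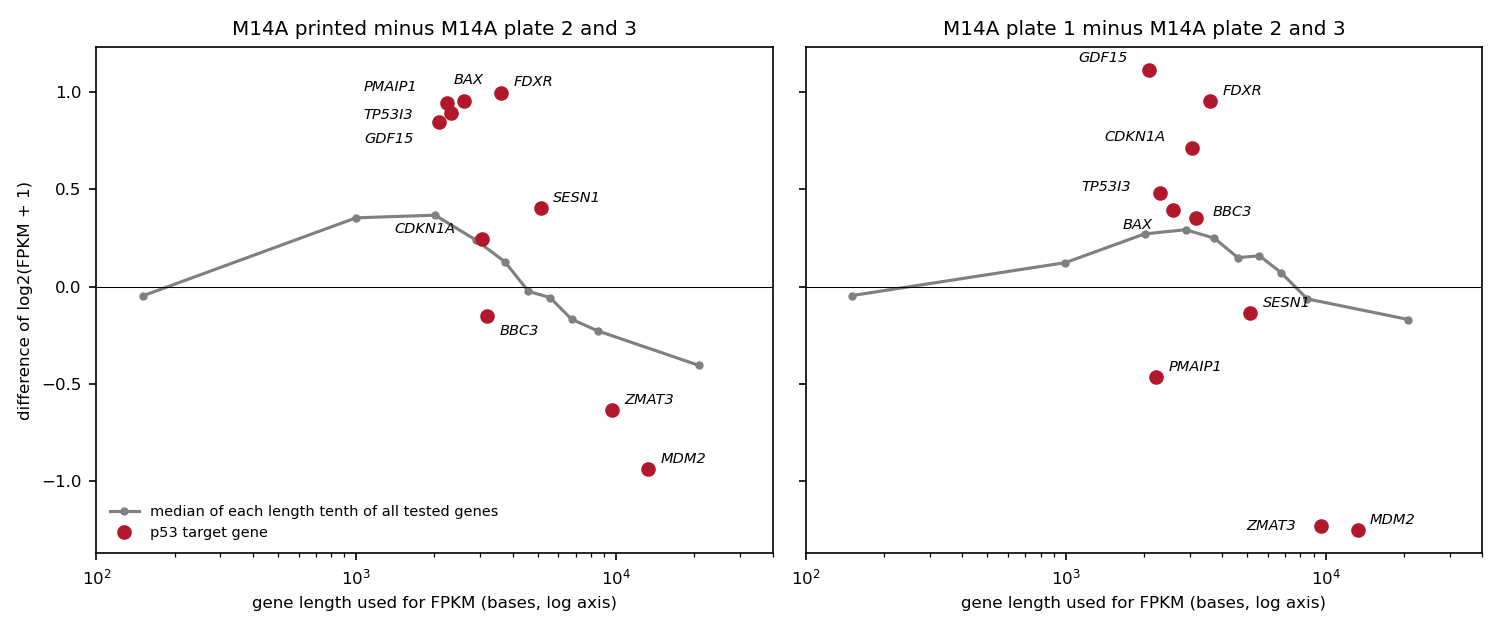
Difference of log2(FPKM + 1) against gene length in bases (log axis), M14A printed mean minus the mean of M14A plate libraries 2 and 3 (left) and M14A plate library 1 minus the same mean (right). Red points are the p53 target genes, and the grey line joins medians of the 10 length classes of all tested genes. MDM2 and ZMAT3 lie lowest in both panels.

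Of the 31 other p53 targets tested, 7 rose and 8 fell in M14A printed relative to M14A plate, with a median log2 fold change of 0.07. Of all tested genes 17.7% rose and 15.5% fell, and whether these targets differ from those shares was not tested. Among the rises were CCNG1 (0.95, SE 0.18), RPS27L (0.93, SE 0.13) and TRIAP1 (0.82, SE 0.14), an inhibitor of caspase activation. Among the falls were BTG2 (-1.60, SE 0.21), the translesion polymerase POLH (-1.39, SE 0.20), TP53INP1 (-0.91, SE 0.27), the death receptors TNFRSF10A (-0.69, SE 0.17) and EDA2R (-0.61, SE 0.14), and the damage sensor XPC (-0.63, SE 0.16). BTG2 had 10.2 and 10.9 FPKM in M14A printed, against 46.6, 29.5 and 28.4 FPKM in M14A plate. CCNG1 had 58.6 and 64.4 FPKM in M14A printed, against 24.6, 33.3 and 37.6 FPKM in M14A plate, so these targets were separated in opposite directions in every library. TP53INP1 lost its call without either printed library, M14A plate library 2 or 3, or HepaRG plate library 1 or 3. TNFRSF10A lost its call without either printed library, and EDA2R and XPC lost theirs without M14A printed library 1. At equal FPKM totals 0 of the 31 rose and 20 fell, where 45.4% of all tested genes fell, and CCNG1, RPS27L and TRIAP1 were no longer called (log2 fold changes of 0.20, 0.19 and 0.07). With M14A printed library 1 left out the counts were 4 and 3, and with library 2 left out 4 and 5.

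Of the 13 regulators and relatives of p53, 0 rose and 7 fell in M14A printed relative to M14A plate by limma, with 1 higher at an unadjusted p below 0.05 and 0 by voom, beside 17.7% of all tested genes higher and 15.5% lower. They included the kinase HIPK2 (-1.40, SE 0.17), the DNA-dependent kinase PRKDC (-1.01, SE 0.30) and TP73 (-0.88, SE 0.16), and PRKDC lost its call without any one library other than M14A plate library 1. The number of falls was 11 at equal FPKM totals, 2 with only the groups compared, 3 without M14A printed library 1, and 4 without M14A printed library 2, M14A plate library 2 or 3, or any HepaRG plate library. In the BCL2 family 4 of 12 rose and 3 fell, with BAD (1.24, SE 0.22) up and MCL1 (-1.46, SE 0.13) and BMF (-0.92, SE 0.15) down on the log2 scale. MCL1 had 41.3 and 49.3 FPKM in M14A printed, against 124, 127 and 127 FPKM in M14A plate. In the list of CDK inhibitors and G1 cyclins, which also holds CDK2, CDK4, CDK6 and PCNA, 3 of 13 genes rose and 1 fell. Beside them stand 17.7% and 15.5% of all tested genes, and a difference from those shares was not tested. CDKN2A (1.07, SE 0.22), CDKN2D (0.84, SE 0.18) and the kinase CDK4 (0.48, SE 0.15) rose, and the fall, named after its value was seen, was in CDKN2B (-0.43). CDK4 lost its call without any one library other than M14A plate library 1 and was at -0.26 at equal FPKM totals. Of 11 p21 and DREAM genes 0 were called in either direction by limma or voom, with 1 higher and 2 lower at an unadjusted p below 0.05, and CDC20, the most abundant, was at -0.07. At equal FPKM totals 0 of them were higher and 9 lower, with quantile scaling 0 and 3, and CDC20 was then called lower, at -0.82 and -0.54. Without M14A plate library 1, 3 of them were called higher, CDC20 (0.26) included, and 5 lower. In that fit 28.2% of all tested genes were called higher and 26.9% lower. Among 8 ATF4 and stress response genes, 3 rose and 3 fell, with ATF3 (1.25, SE 0.22) up and DDIT4 (-1.51, SE 0.27) and CEBPB (-1.19, SE 0.28) down. CEBPB had 105 and 62.6 FPKM in M14A printed and was at -0.82 without M14A printed library 2. With only the groups compared it lost its call (limma adjusted p = 0.0662). ATF4, named after its value was seen, had 111 and 99.6 FPKM in M14A printed, against 63.1, 45.2 and 42.5 FPKM in M14A plate, and was called higher (1.07, SE 0.18). At equal FPKM totals the BCL2 family had 1 higher and 7 lower of 11 tested, the list of CDK inhibitors and G1 cyclins 0 and 7 of 13, and the ATF4 list 2 and 4 of 8, where 45.4% of all tested genes fell. Without M14A printed library 1 the CDK inhibitors and G1 cyclins had no call in either direction, and without M14A plate library 1 they had 5 higher and 4 lower.

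Across the 3 groups the 10 genes showed a few orders of level. The summed FPKM of the 10 was 1370 and 1060 in M14A printed and 1340, 830 and 771 in M14A plate, against 166, 155 and 164 in HepaRG plate. M14A printed set against HepaRG plate shares its groups with both other comparisons and serves only to order them. In it 9 of 10 genes were called higher and 0 lower by limma, also at an unadjusted p below 0.05 and by voom, beside 28.1% of all genes called higher and 28.1% lower, 56.2% in either direction. The same 9 did not overlap between the groups, as in 38.5% of all genes on the higher side and 41.8% on the lower side. For BAX, TP53I3 and SESN1 the order on the authors' scale was M14A printed, then M14A plate, then HepaRG plate, although M14A plate and HepaRG plate did not differ by the test in TP53I3. At equal FPKM totals M14A printed was not called apart from M14A plate in these genes (log2 fold changes of 0.067 in BAX, -0.017 in TP53I3 and -0.26 in SESN1). PMAIP1 was lowest in M14A plate, while M14A printed (15.95 ± 3.32 FPKM, n = 2) and HepaRG plate (14.7 ± 1.07 FPKM, n = 3) did not differ beyond their spread (log2 fold change 0.10, 95% interval -0.34 to 0.54, limma adjusted p = 0.686). For CDKN1A, MDM2, ZMAT3, GDF15, BBC3 and FDXR, on the authors' scale with all libraries, M14A printed and M14A plate were not told apart and both lay above HepaRG plate. At equal FPKM totals CDKN1A (-0.75) and BBC3 (-0.99) were called lower in M14A printed than in M14A plate. Without M14A plate library 1, MDM2 and ZMAT3 were called lower there and FDXR and GDF15 higher. The call of ZMAT3 in M14A printed (log2 fold change 1.02, limma adjusted p = 0.0293) was lost without either printed library or any HepaRG plate library.

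Likeness over the 8 libraries was measured by Pearson r of log2(FPKM + 1), as a description, since all genes share the same libraries and group differences. Among the 10 genes themselves, FDXR and GDF15 were the most alike pair (r = 0.997), MDM2 and ZMAT3 were alike at 0.962, and PMAIP1 had a negative r with each of the others, from -0.633 with BBC3 to -0.007 with TP53I3. Of 11296 other protein-coding genes, those nearest to CDKN1A were the receptor GPR35 (0.9993), the NF-kappaB pathway inhibitor TNIP1 (0.9986) and MAGEB17 (0.9985). Nearest to MDM2 were the chromatin protein HMGA2 (0.998), the lipid kinase DGKI (0.9978) and the hyaluronan-binding TNFAIP6 (0.9969). Those nearest to PMAIP1 were annexin ANXA1 (0.993), the histone chaperone SET (0.9885) and CMSS1 (0.9873). ANXA1 had 39.5 and 46.4 FPKM in M14A printed and 15.8, 22.6 and 24.2 FPKM in M14A plate, against 43.5, 39.1 and 40.2 FPKM in HepaRG plate, the same dip in M14A plate as PMAIP1.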

How the data were processed

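RNA was extracted with TRIzol and 1 µg entered each NEBNext Ultra library, per the labels' protocols. The submitters' processing notes name HISAT2 2.0.5 and featureCounts 1.5.0-p3. Their options, strand setting and genome build: not given in the sources used here. Gene coordinates in the deposited table equal GENCODE 29 on GRCh38 for all 58735 genes. The authors deposited FPKM for each library with the gene lengths. Whole reads were recovered from FPKM times length within a tolerance of 0.01, and 0 columns were left without a sample.

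Sample titles gave the groups. A gene was tested where 2 or more libraries reached 1 FPKM (14349 genes), as log2(FPKM + 1), which understates changes of low genes, with limma 3.58.1 in R 4.3.3 (eBayes with trend, 8 libraries in 1 fit, 3 group means, 5 residual degrees of freedom). Tests are two-sided, Benjamini-Hochberg adjusted over all tested genes and called below 0.05. The printed group's spread is taken from all groups, and both comparisons share the M14A plate libraries. On simulated data, unchanged genes made up more of the calls than the nominal rate, and well more where the 2 printed libraries were involved. The simulated libraries all shared a common spread, unlike these data, so they do not give the rate of false calls here. Replicates differed beyond sampling noise (chi-square per degree of freedom 2.69 to 69.3), so none was counted as a duplicate.

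The 10 genes and the 13 gene lists (125 entries) were chosen with earlier results of these data known. Named genes are the 10, FOXM1 and HNF4A, from each list up to 3 called genes with the largest change or the most abundant where none was called, and the 3 genes most like CDKN1A, MDM2 and PMAIP1. A gene of this rule and one overlapping it are not reported here. List genes named beyond this because few were called or not called, and MCL1 and ATF4 where said, were chosen after their values were seen. Alternatives (20 planned settings, and 3 chosen after seeing the data) were pseudocounts of 0.1 and 0.01, no filter, a 5 FPKM filter, equal FPKM totals with and without mitochondrial genes, quantile scaling, only the groups compared, no trend, voom, a replicate block, each library left out, a threshold of 0.01, protein-coding genes alone, and removal of length and GC trends, with and without M14A plate library 1. Promoter windows are RefSeq's on GRCh38.p14.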

Additional observations from a re-analysis of the deposited data

How the results depend on the processing

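For M14A plate minus HepaRG plate, the count of p53 target genes called higher was 7 to 9 and the count called lower 1 under all 23 settings. Of all tested genes, 6.17% to 23.5% were called higher and 6.66% to 27.7% lower under these settings. For M14A printed minus M14A plate, the higher count of 4 became 0 at equal FPKM totals, 1 at equal totals without mitochondrial genes, with quantile scaling and with only the groups compared, and 2 at a threshold of 0.01. Of all tested genes, 3.24%, 5.51%, 16.8%, 7.4% and 8.82% were called higher in these settings in turn, against 17.7% in the main fit. Leaving out 1 library gave 1 to 6 higher. The lower count of 0 became 2 under both equal-total scalings and quantile scaling, 1 with the length and GC trend removed, 3 with that and M14A plate library 1 left out, and 0 to 2 with 1 library left out. All tested genes called lower made up 45.4% at equal totals, 37.1% at equal totals without mitochondrial genes and 15.8% with quantile scaling. They made up 20.5% with the trend removed and 26.6% with M14A plate library 1 also left out. For M14A printed minus HepaRG plate the lower count of 0 became 1 (PMAIP1) at equal totals and with the trend removed without M14A plate library 1. There 63.1% and 36.6% of all tested genes were called lower.

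Signs that turned in M14A printed minus M14A plate were, at equal totals, CDKN1A -0.75, FDXR -0.073, GDF15 -0.29, TP53I3 -0.017, SESN1 -0.26 and CDK4 -0.26. At equal totals without mitochondrial genes they were CDKN1A -0.57, GDF15 -0.11, SESN1 -0.092 and CDK4 -0.086, and with quantile scaling CDKN1A -0.90 and GDF15 -0.53. With the trend removed CDKN1A was at -0.097 and ZMAT3 at 0.076, and without M14A plate library 1 as well, CDKN1A at -0.010. With 1 library left out, CDKN1A ran from -0.15 to 0.24, BBC3 from -0.59 to 0.051, ZMAT3 from -0.64 to 0.0072 and CDC20 from -0.25 to 0.26. In M14A printed minus HepaRG plate, PMAIP1 turned to -0.80 and -0.57 under the equal-total scalings, -0.10 with quantile scaling, -0.10 to 0.30 with 1 library left out, and -0.27 with the trend removed, with or without M14A plate library 1. The causes were not tested. By construction, leaving out 1 of the 2 printed libraries leaves a lone sample, assumed to vary like the other groups.

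Replicate numbers were not taken to pair the samples, since no label says so and the correlations do not settle it: deviations of same-numbered libraries correlated at -0.071, 0.081 and -0.155 between M14A plate and HepaRG plate, and at 0.487 and 0.365 between M14A printed and M14A plate. With the replicate block, M14A plate minus HepaRG plate had 8 of the 10 genes higher and 1 lower, beside 15.7% and 15.1% of all tested genes. M14A printed minus M14A plate had 3 higher, beside 15.9% of all tested genes, and SESN1 was at 0.47 (limma adjusted p = 0.0506) and CDKN1A at -0.043. Every gene of the 10 had at least 190 reads in each library, the fewest in PMAIP1 in M14A plate library 1. The part of depth in these values was not tested. The 2 printed libraries limit the printed comparisons most.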
